A study of Saccharomyces cerevisiae with 36 samples.

Results

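A set of 10 genes of phosphate uptake and polyphosphate metabolism was followed in 2 wine strains of Saccharomyces cerevisiae, strain 12 (dominant) and strain 11 (non-dominant). The 10 genes were chosen by name, out of 6717 gene records measured, and each was described over all 12 groups of strain, culture and sampling time. They comprised the phosphate transporter genes PHO84 and PHO89, the phosphatase genes PHO5 and PHO8, the regulator genes PHO2 and PHO4, the polyphosphate polymerase genes VTC1, VTC3 and VTC4, and the phosphate-responsive gene PHM7. PHM7 differed most between the groups: its mRNA was lower in strain 12 than in strain 11 in single and in mixed culture at every time, and at 12 h it was higher in mixed than in single culture in both strains. In strain 12, strain 11 RNA at 5.80% to 7.80% of a library would give that rise. The part of the sort that separated the strains was not tested.

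The strains were grown alone (single culture) or together (mixed culture) in Nebbiolo must, a red grape juice, after inoculation at equal cell density. Both carried a fluorescent protein, GFP or eSapphire, driven by the constitutive GPD promoter, and the markers were swapped between the strains. Cells were taken at 12, 20 and 30 h, that is, in early exponential growth, in mid exponential growth and at entry into stationary phase, were sorted by their fluorescence, and their amplified RNA was sequenced on a SOLiD instrument. The 12 groups were thus strain 11 single, strain 12 single, strain 11 mixed and strain 12 mixed at each of the 3 times, with 3 libraries per group. All groups carried a marker gene and all had passed through the sorter. No library was from unlabelled cells, the labels do not say which marker a library carried, and each strain stands for 1 isolate. The fermentations were run in triplicate, but the labels do not tie a library to a fermentation, so p-values measure the spread between libraries only. The paper describes aliquots drawn from a fermentation at each phase, so libraries of different times may share a flask. Both strains of a mixed culture may share one as well. The main tests treat the libraries as independent.

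Yeast cells short of phosphate switch on the PHO pathway. When phosphate is plentiful, the cyclin and kinase pair Pho80-Pho85 phosphorylates the transcription factor Pho4 and keeps it out of the nucleus. When phosphate falls, the inhibitor Pho81 holds the kinase back, and Pho4 enters the nucleus and, often together with Pho2, activates genes for phosphate transporters, secreted acid phosphatases and the vacuolar enzymes that make polyphosphate, a chain of phosphates in which yeast stores this nutrient.

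Total counts ran from 35400 to 530376 reads per library (median 125757), with medians of 230090 at 12 h, 88929 at 20 h and 91419 at 30 h, so values at the later times rest on fewer reads. Levels within a gene are given as CPM, counts scaled to library size after TMM normalisation, and levels between genes as RPKM, reads scaled to gene length in kilobases and to library size. In every one of the 360 pairs of member and library, the count on the gene equalled the count on its exons. A gene was called changed where its p, adjusted by Benjamini-Hochberg over all 3670 genes that passed the filter on low counts, was 0.05 or less. Of the 10 members, 8 passed that filter, and PHO89 and PHO5 did not. Each library pools the RNA of many sorted cells. Fewer cells expressing a gene and less of its RNA per cell cannot be told apart.

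Pho4 binds the hexamer CACGTG and, more weakly, CACGTT. The stretches before the coding start that hold CACGTG are shown for the 7 members that have it within 600 bases. They are from RefSeq's R64 genome, in that build's own coordinates, 5′ to 3′ on the strand of the gene, with CACGTG and CACGTT in capitals. Positions are counted back from the base before the start codon, which is -1.
PHO84, chrXIII:26201-26400, minus strand: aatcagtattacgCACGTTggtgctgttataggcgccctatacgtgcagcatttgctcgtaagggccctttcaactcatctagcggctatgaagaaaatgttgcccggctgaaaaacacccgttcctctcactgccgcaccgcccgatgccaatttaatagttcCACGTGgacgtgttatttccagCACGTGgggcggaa
PHO89, chrII:798813-798872, minus strand: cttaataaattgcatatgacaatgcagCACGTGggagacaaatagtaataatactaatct
PHO5, chrII:431172-431231, minus strand: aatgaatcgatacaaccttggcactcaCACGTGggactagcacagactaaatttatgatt
PHO8, chrIV:1420751-1420810, minus strand: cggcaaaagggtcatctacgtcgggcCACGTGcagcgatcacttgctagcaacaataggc
VTC1, chrV:302637-302666, plus strand: aatagatattagCACGTGtctcggagagaa
VTC3, chrXVI:517314-517373, minus strand: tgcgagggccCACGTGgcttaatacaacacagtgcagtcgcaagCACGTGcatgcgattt
VTC4, chrX:413501-413530, minus strand: catccgCACGTGgctgcaCACGTGaatgaa
CACGTG is a palindrome, so both strands are read at once. PHO84, VTC3 and VTC4 had 2 copies each and PHO89, PHO5, PHO8 and VTC1 had 1 copy each within 600 bases. The copies closest together were those of VTC4, which began at -125 and -113. PHO2, PHO4 and PHM7 had neither CACGTG nor CACGTT in that window on either strand. Of 5999 promoters of the same length, 7.23% held CACGTG (434 promoters) and 18.8% held CACGTT (1127 promoters) on either strand. The motif GNGGCNCA of the calcineurin-dependent factor Crz1, searched on both strands, was in 9.60% of promoters (576 promoters) and in none of the 10. The members were chosen by name as phosphate genes, so how many of them hold CACGTG is not compared with the share over all promoters. These matches describe letters in these windows of the reference strain and were not read from strains 11 and 12.

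The members differed widely in level. By median RPKM over the 36 libraries, PHM7 was highest (326), followed by VTC1 (270), PHO8 (166), PHO4 (101), PHO84 (63.8), VTC4 (50.97), VTC3 (38.4), PHO2 (26.5) and PHO5 (14.1), with PHO89 at 0. The median of the same measure over the 3670 tested genes was 73.2 RPKM. PHM7 also varied most among the groups. Its highest group mean was 136 times its lowest in CPM, a ratio above that of 99.6% of the 3635 tested genes without a group at 0, whose median ratio was 3.69. The ratio was 7.90 for PHO84, 5.61 for PHO8, 3.22 for PHO4, 2.82 for VTC1, 1.98 for VTC4 and 1.77 for VTC3.

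**Figure D1:**
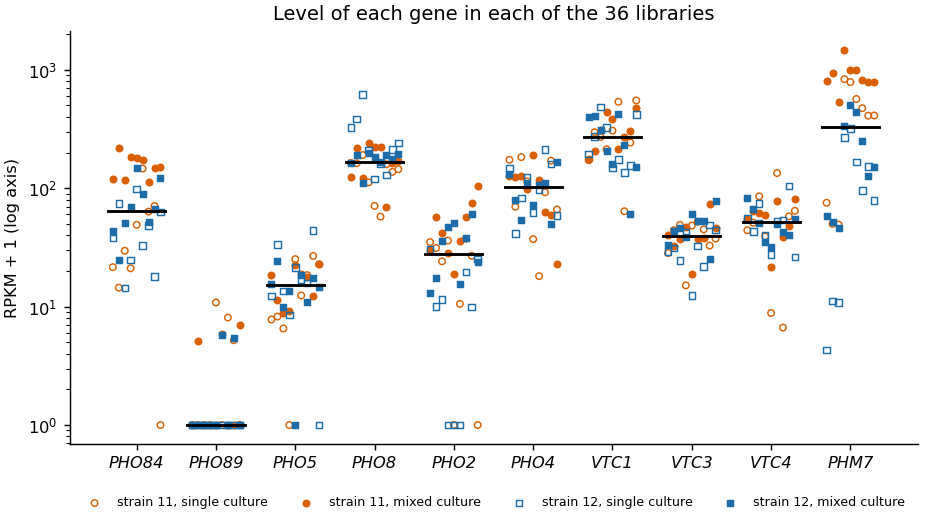
RPKM + 1 on a log axis for the 10 genes, with 1 point per library (36 per gene), colour and shape for the strain, filled points for mixed culture, and a bar at the median. PHM7 spans the widest range, from 3.32 to 1467 RPKM, and PHO89 lies at 0 in 28 of 36 libraries.

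The first comparison asked what growth with the other strain changed in each strain. In strain 11, 2 of the 8 members tested were called at 12 h, both higher in mixed culture, while 8.66% of all genes tested were called in either direction. At 20 h 1 was called, higher in mixed culture (4.99% of all genes called), and at 30 h 0 were called (3.81%), with 4 at an unadjusted p under 0.05. In strain 12, 2 were called at 12 h, 1 higher and 1 lower (2.59%). At 20 h 1 was called, higher in mixed culture (1.28%), and at 30 h 0 were called (0.218%), with 0 at an unadjusted p under 0.05. DESeq2 also called 0 members at 30 h in either strain. Averaged over the times, 2 members were called in strain 11 (14.7% of genes called) and 2 in strain 12 (1.91%), all of them higher in mixed culture. The members' median log2 difference over the means of times was 0.14 in strain 11 and 0.18 in strain 12, against -0.03 and 0.01 over all genes tested.

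**Figure D2:**
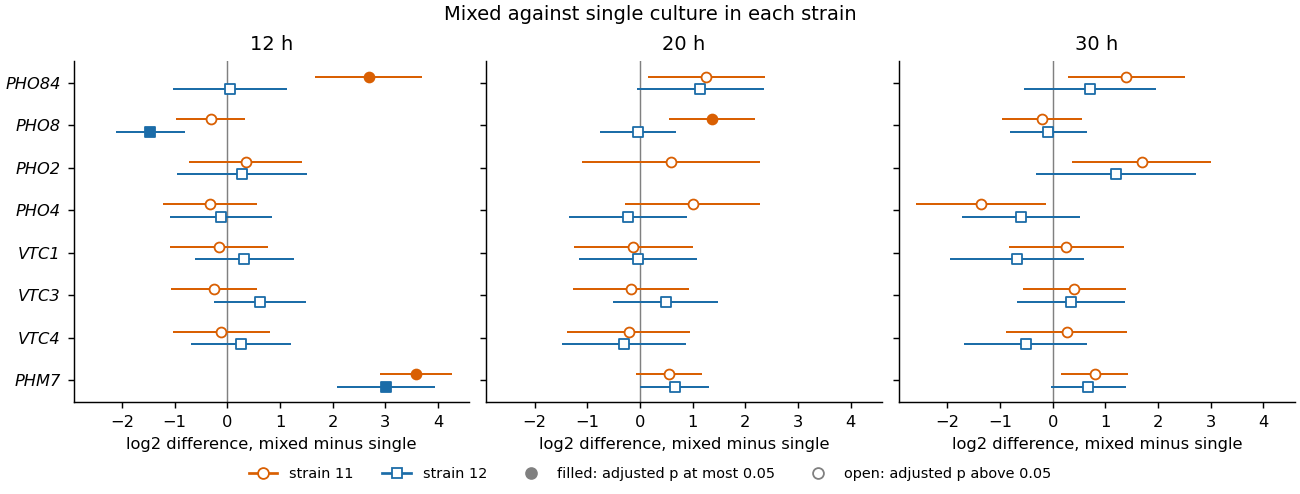
Log2 difference between mixed and single culture (x axis) for the 8 members tested, at 12, 20 and 30 h, with 95% intervals, circles for strain 11, squares for strain 12, and filled symbols where the adjusted p was at most 0.05. PHO2 in strain 12 at 20 h is left out because its single culture libraries hold 0 reads. The filled symbols are PHM7 in both strains, PHO84 in strain 11 and PHO8 in strain 12 at 12 h, and PHO8 in strain 11 at 20 h.

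The second comparison set strain 12 against strain 11 in the same culture. In single culture 2 members were called at 12 h, 1 lower and 1 higher in strain 12 (1.04% of genes called in either direction). A further call each followed at 20 h (0.572%) and 30 h (0.518%), both lower in strain 12. In mixed culture 2 members were called at 12 h (5.04%), 1 at 20 h (0.191%) and 1 at 30 h (0.899%), all lower in strain 12. Averaged over times, 2 were called in single culture, 1 lower and 1 higher (1.47%), and 2 in mixed culture, both lower (9.78%). PHM7 was among the members called in each of these 8 contrasts.

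The third comparison followed each culture in time. Between 12 and 20 h, 3 members were called in strain 11 single culture, 2 higher and 1 lower (28.8% of genes called in either direction), and 0 in strain 11 mixed culture (5.78%). In strain 12, 3 were called in single culture, 1 higher and 2 lower (25.7%), and 1 in mixed culture, higher (23.8%). For the 0 members of strain 11 mixed culture, 1 had an unadjusted p under 0.05 and DESeq2 called 0. Averaged over strains and cultures, 4 members were called from 12 to 20 h, 2 higher and 2 lower (48.1% of genes called), and 1, lower, from 20 to 30 h (3.43%). Within single groups 0 members were called from 20 to 30 h, with 0.708% and 0% of genes called in strain 11 single and mixed culture and 0.627% and 0.0272% in strain 12. There, 1, 3, 2 and 1 members had an unadjusted p under 0.05, and DESeq2 called 0, 0, 1 and 1.

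PHO84 (YML123C, chrXIII:24038-25801 of sacCer2, minus strand) encodes the high-affinity phosphate transporter of the plasma membrane, a proton symporter. At 12 h, the libraries of strain 11 had 36.4, 23.8 and 52.5 CPM in single culture and 195, 358 and 188 CPM in mixed culture. Every mixed culture library lay above every single culture library. PHO84 thus rose 6.41-fold in strain 11 (log2 2.68, SE 0.50, adjusted p = 8.62e-05, edgeR). In strain 12 at 12 h it was at 64.9, 132 and 25.2 CPM in single culture and at 81.9, 43.3 and 94.95 CPM in mixed culture. These groups overlapped, and the log2 difference was 0.05 (95% interval -1.02 to 1.11, adjusted p = 0.979). The response of strain 11 (mixed minus single culture) exceeded that of strain 12 by 2.64 on the log2 scale (SE 0.73) with an adjusted p of 0.0527, above the threshold. With the replicate number as a block the adjusted p was 0.0472, below the threshold, and the single cultures of this time were the only groups whose numbers met the cut for pairing stated under processing. It was also below the threshold in DESeq2 (0.0394), in a fit of only the libraries compared (0.0474) and without a filter (0.00761), and above it with RLE factors (0.0657) and in both limma fits (0.826 and 0.999). The response of PHO84 at 12 h in strain 11 was kept when any of the 6 libraries was left out, but limma on log2(RPKM + 1) gave an adjusted p of 0.136 and on log2(RPKM + 0.1) of 0.397.

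At the later times PHO84 in strain 11 single culture was uneven, with 37.2, 86.2 and 261 CPM at 20 h and 106, 125 and 0 CPM at 30 h. These values rest on 3, 5 and 16 reads at 20 h and on 9, 17 and 0 reads at 30 h. The library at 0 held 66068 reads in all, a depth at which 0 reads allow up to 47 CPM by counting error alone. In mixed culture strain 11 had 311, 299 and 281 CPM at 20 h and 188, 244 and 247 CPM at 30 h, above all single culture libraries of the same time. The differences were 1.26 (95% interval 0.17 to 2.35, adjusted p = 0.19) and 1.40 (95% interval 0.31 to 2.48, adjusted p = 0.145) on the log2 scale, and the mean over the times was 1.78 (SE 0.30, adjusted p = 9.95e-06). In strain 12, PHO84 had 46.5, 163 and 56.9 CPM in single culture (4, 6 and 5 reads) and 113, 240 and 148 CPM in mixed culture at 20 h. At 30 h it had 83.8, 30.9 and 104 CPM in single culture (8, 2 and 8 reads) and 86.4, 111 and 207 CPM in mixed culture. Its groups overlapped at both times, and its mean log2 response over times was 0.63 (95% interval -0.04 to 1.31, adjusted p = 0.41).

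Between the strains, PHO84 was lower in strain 12 in mixed culture at 12 h (log2 -1.72, SE 0.49, adjusted p = 0.024) and on average over the times (log2 -1.14, SE 0.28, adjusted p = 0.00416). The lowest strain 11 library of mixed culture at 12 h, 188 CPM, stood above the highest strain 12 library of that time in either culture, 132 CPM. The call at 12 h was lost without replicate 1 or 2 of strain 11 mixed culture (adjusted p 0.0515 and 0.217) and without replicate 1, 2 or 3 of strain 12 mixed culture (0.0577, 0.161 and 0.0547), and in both limma fits (0.436 and 0.717). The average over times was lost in both limma fits (adjusted p 0.259 and 0.501). In single culture the mean log2 difference of PHO84 between the strains was 0.00 and was not called (adjusted p = 0.996, edgeR). At 12, 20 and 30 h it was 0.92, -0.71 and -0.19 (SE 0.54, 0.67 and 0.64), and none was called. No interval is given for the mean, because its standard error is unreliable for so small a difference. From 12 to 20 h PHO84 rose in strain 11 single culture (log2 1.72, SE 0.60, adjusted p = 0.0244). That call rested on 1 library: without replicate 3 at 20 h the value was 0.60 (adjusted p = 0.621), and it was also lost without replicate 1 or 2 at 12 h (0.0802 and 0.0915) and in both limma fits (0.347 and 0.531). The mean rise over strains and cultures was 0.82 (SE 0.28, adjusted p = 0.0122). It fell to 0.52 without the same replicate 3 (adjusted p = 0.144) and to 0.64 without replicate 2 of strain 12 single culture at 20 h (0.0653), and it was not called in the limma fits (0.182 and 0.343).

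**Figure D3:**
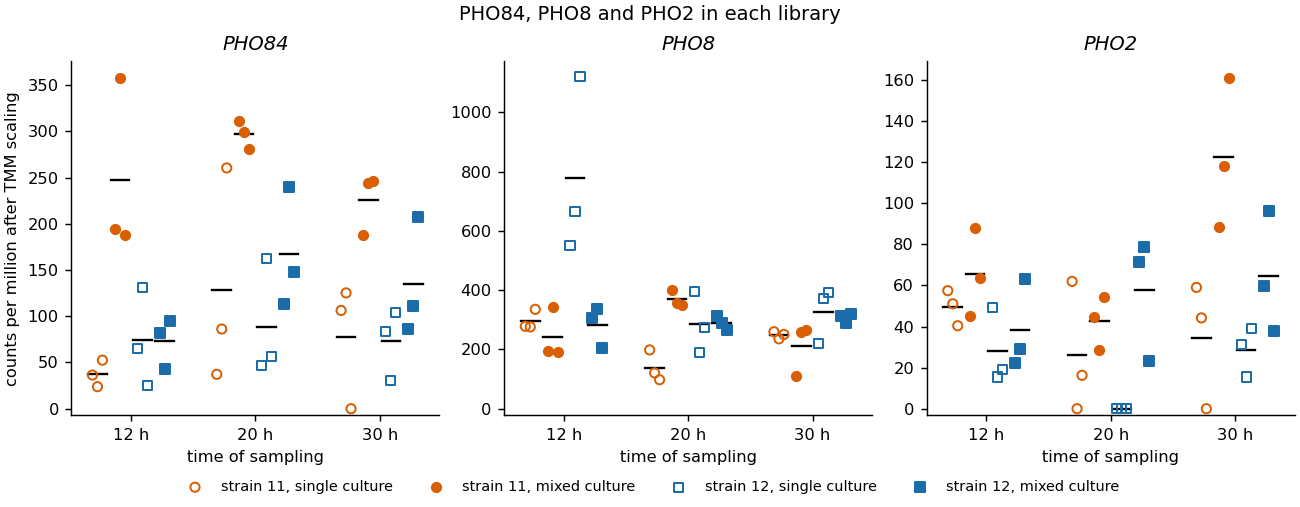
CPM of PHO84, PHO8 and PHO2 in each library by sampling time, with circles for strain 11, squares for strain 12, open symbols for single and filled symbols for mixed culture, and bars at group means. PHO84 of strain 11 lies at 188 to 358 CPM in mixed and at 23.8 to 52.5 CPM in single culture at 12 h, PHO8 is highest in strain 12 single culture at 12 h, and PHO2 is at 0 in the 3 strain 12 single culture libraries of 20 h.

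PHO89 (YBR296C, chrII:796792-798516 of sacCer2, minus strand) encodes a sodium-coupled phosphate transporter that works at alkaline pH. It had 8 reads in all, never more than 1 in a library, and 0 reads in 28 of 36 libraries. Its 8 reads fell in 7 groups, and 5 groups were at 0. No difference was detectable at this depth.

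PHO5 (YBR093C, chrII:429542-430945 of sacCer2, minus strand), the secreted acid phosphatase that is the classic readout of Pho4 activity, was also near the limit of detection. It had 102 reads in all, between 0 and 8 per library, with 3 libraries at 0. Its group means ran from 9.29 CPM (SD 1.1, n = 3) in strain 11 single culture at 12 h to 30.6 CPM (SD 6.64, n = 3) in the same culture at 30 h. These 2 groups, at 8.08 to 10.2 CPM and 23.6 to 36.8 CPM, did not overlap, but each library held 5 reads or fewer and PHO5 was not tested. PHO5 shares much of its sequence with PHO3, PHO11 and PHO12, so its reads are uncertain.

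PHO8 (YDR481C, chrIV:1418543-1420243 of sacCer2, minus strand) encodes the alkaline phosphatase of the vacuole. It was highest in strain 12 single culture at 12 h, with 551, 665 and 1122 CPM, against 305, 337 and 204 CPM in strain 12 mixed culture. All single culture libraries stood above all mixed culture libraries, and PHO8 fell in mixed culture by 1.46 on the log2 scale (SE 0.32, adjusted p = 0.00452). In strain 11 at 12 h PHO8 had 278, 276 and 335 CPM in single and 195, 345 and 191 CPM in mixed culture. Those groups overlapped, with a log2 difference of -0.31 (95% interval -0.95 to 0.32). The difference between the responses of the strains, 1.15 (SE 0.45), was not called (adjusted p = 0.283). The fall in strain 12 was lost without replicate 3 of single culture, its highest library (log2 -1.10, adjusted p = 0.0592), without replicate 3 of mixed culture (log2 -1.23, 0.0656), and in a fit of only the libraries compared (0.104).

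At 20 h PHO8 was higher in mixed than in single culture in strain 11. It had 198, 121 and 97.7 CPM in single and 400, 356 and 351 CPM in mixed culture, with no overlap, a rise of 2.58-fold (log2 1.37, SE 0.40, adjusted p = 0.0276). The single culture libraries held 16, 7 and 6 reads of the gene. The call was lost without replicate 2 or 3 of single culture (adjusted p 0.0966 and 0.134) and without replicate 1, 2 or 3 of mixed culture (0.102, 0.0521 and 0.0819). In strain 12 at 20 h PHO8 lay between 190 and 395 CPM in all 6 libraries, with a log2 difference of -0.04 (95% interval -0.73 to 0.66) between the cultures. The difference between the responses of the strains at 20 h, 1.40 (SE 0.53), was not called (adjusted p = 0.448, edgeR). At 30 h the log2 difference of PHO8 between the cultures was -0.20 (95% interval -0.94 to 0.53) in strain 11 and -0.08 (95% interval -0.80 to 0.63) in strain 12.

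Between the strains in single culture, PHO8 was higher in strain 12 at 12 h (log2 1.39, SE 0.31, adjusted p = 0.00594), with no overlap. It was also higher on average over the times (log2 0.94, SE 0.21, adjusted p = 0.00419). The call at 12 h was lost without replicate 1 of strain 11 (adjusted p = 0.0807) or replicate 3 of strain 12 (log2 1.06, 0.179), in both limma fits (0.0809 and 0.0702) and in a fit of only the libraries compared (0.135). In mixed culture the mean log2 difference between the strains was 0.13 (95% interval -0.26 to 0.53). From 12 to 20 h PHO8 fell in single culture, by 1.05 in strain 11 (SE 0.38, adjusted p = 0.0322) and by 1.38 in strain 12 (SE 0.34, adjusted p = 0.00166) on the log2 scale. Averaged over strains and cultures it fell by 0.44 (SE 0.17, adjusted p = 0.0328). The fall in strain 11 was lost without replicate 3 at 12 h (adjusted p = 0.0602), without replicate 2 or 3 at 20 h (0.0961 and 0.126) and in a fit of only the libraries compared (0.0774). The average was lost without replicate 3 of strain 12 single culture at 12 h (log2 -0.37, adjusted p = 0.0706).

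PHO2 (YDL106C, chrIV:270222-271901 of sacCer2, minus strand) encodes a homeodomain factor that binds DNA together with Pho4. It had 312 reads in all. In strain 12 single culture its counts were 25, 2 and 3 reads at 12 h (49.2, 15.5 and 18.9 CPM), 0, 0 and 0 reads at 20 h, and 3, 1 and 3 reads at 30 h (31.4, 15.4 and 39.2 CPM). In strain 12 mixed culture at 20 h it had 26, 19 and 3 reads (71.6, 78.6 and 23.4 CPM). The 3 libraries at 0 together allow up to 14.2 CPM, taking 3 reads over the group as the limit. Against that limit the group mean of mixed culture at 20 h, 57.9 CPM, was at least 4.08-fold higher, and at least 3.35-fold higher without its highest library. Strain 11 single culture at 20 h had 5, 0 and 1 reads. Its mean and that of strain 12 single culture at 12 h each rested on 1 library, and no bound is given against them.

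The test called PHO2 higher in mixed culture in strain 12 at 20 h (adjusted p = 0.0292) and on average over the times (0.021), and lower at 20 than at 12 h in strain 12 single culture (0.0177) and on average over strains and cultures (0.0211). All 4 calls include the group at 0, so the fitted fold changes give no bound and are not stated. The call at 20 h was lost without any 1 of replicates 1, 2 and 3 of single culture (adjusted p 0.166, 0.0615 and 0.116) and of replicates 1 and 2 of mixed culture (0.079 and 0.132). The mean of times was lost without replicate 3 of mixed culture at 12 h (adjusted p = 0.0699), without replicate 1 or 3 of single culture at 20 h (0.0584 and 0.0596) and in both limma fits (0.0671 and 0.0963). The fall between 12 and 20 h was lost without replicate 1 at 12 h (0.113) or replicate 1 or 3 at 20 h (0.0774 and 0.0744). The average fall was lost without replicate 1 of strain 12 single culture at 12 h (0.0588). In strain 11 at 30 h PHO2 had 59.1, 44.2 and 0 CPM in single and 88.7, 118 and 161 CPM in mixed culture. These groups did not overlap, and the log2 difference was 1.69 (95% interval 0.39 to 2.99, adjusted p = 0.138).

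PHO4 (YFR034C, chrVI:225008-225946 of sacCer2, minus strand) encodes the transcription factor at the centre of the pathway, whose activity is regulated by phosphorylation. It passed the test in 0 of the 6 comparisons of mixed with single culture, 0 of 6 of the strains and 0 of 8 of the times. Among those, 1, 0 and 2 had an unadjusted p under 0.05. Of all genes tested, 0.218% to 8.66% were called per comparison of cultures. The shares were 0.191% to 5.04% for the strains and 0% to 28.8% for the times. Its log2 differences between mixed and single culture ran from -1.36 to 1.00, with standard errors of 0.44 to 0.63. The means over times were bounded more tightly, between -0.93 and 0.43 by their 95% intervals. The lowest group was strain 11 mixed culture at 30 h with 55.4, 51.7 and 18.97 CPM, against 82.7, 162 and 62.6 CPM in single culture. These 2 groups did not overlap, and PHO4 passed no test between them. In strain 11 mixed culture at 12 h PHO4 had 109, 108 and 109 CPM.

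VTC1 (YER072W, chrV:302804-303193 of sacCer2, plus strand), VTC3 (YPL019C, chrXVI:514509-517016, minus strand) and VTC4 (YJL012C, chrX:411228-413393, minus strand) encode subunits of the vacuolar transporter chaperone, the membrane complex that makes polyphosphate and moves it into the vacuole. Vtc4 is its catalytic subunit and Vtc1 a small membrane subunit, and Vtc3 is the relative of Vtc2 found in the complex at the vacuole. The 3 genes passed the test in 0 of 18 comparisons of mixed with single culture, where 0 had an unadjusted p under 0.05. They passed in 0 of 18 comparisons of the strains and 0 of 24 of the times, where 1 and 1 had an unadjusted p under 0.05. DESeq2 called none of them in these comparisons. Of all genes tested, 0.218% to 8.66% were called per comparison of cultures, 0.191% to 5.04% per comparison of strains and 0% to 28.8% per comparison of times. At 12 h VTC1 had 67.1, 116 and 109 CPM in single and 63.3, 74.4 and 111 CPM in mixed culture of strain 11. In strain 12 it had 74.8, 108 and 202 CPM in single and 171, 164 and 131 CPM in mixed culture, again with overlap.

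VTC3 was the steadiest member, with group means from 70.4 to 125 CPM. At 12 h it had 69.0, 109 and 125 CPM in single and 90.5, 74.4 and 83.98 CPM in mixed culture of strain 11. In strain 12 its single culture libraries, at 70.8, 77.4 and 63.0 CPM, lay below its mixed culture libraries, at 89.3, 111 and 122 CPM, and the difference of 0.62 on the log2 scale did not pass the test. VTC4, with group means from 77.5 to 153 CPM, had 93.9, 109 and 190 CPM in single and 109, 128 and 121 CPM in mixed culture of strain 11 at 12 h. In strain 12 it had 118, 92.9 and 170 CPM in single and 194, 149 and 118 CPM in mixed culture. For the means over times, the 95% intervals of the 3 genes between mixed and single culture lay within -0.82 and 1.03, and those between the strains within -0.87 and 0.77 on the log2 scale. Differences inside those bounds cannot be told from 0 at this depth. For 1 alternative, a fit of only the libraries compared, VTC4 was lower at 20 than at 12 h in strain 12 mixed culture (where the 3 libraries had 68.9, 62.1 and 102 CPM at 20 h).

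**Figure D4:**
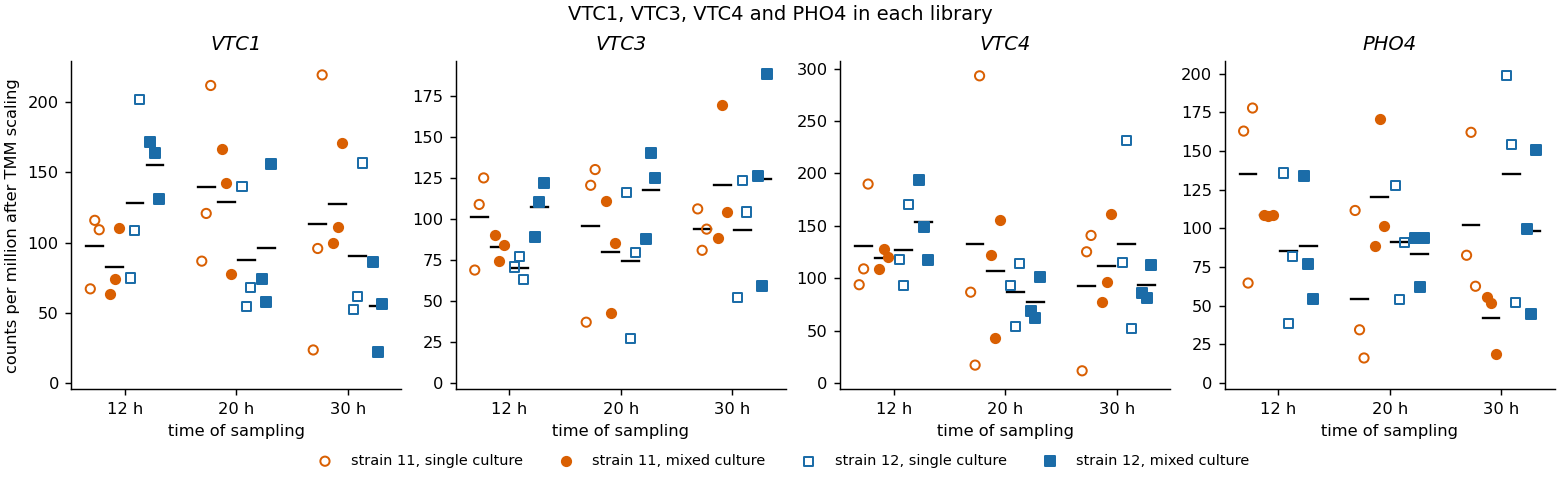
CPM of VTC1, VTC3, VTC4 and PHO4 in each library by sampling time, with circles for strain 11, squares for strain 12, open symbols for single and filled symbols for mixed culture, and bars at group means. None of these genes passed the test in a comparison of cultures, strains or times.

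PHM7 (YOL084W, chrXV:162356-165331 of sacCer2, plus strand) encodes a membrane protein of the cell periphery and vacuole that is annotated in R64 as regulated by phosphate levels and has no assigned function there. It had 5627 reads in all. At 12 h strain 11 had 222, 147 and 150 CPM in single and 2216, 2609 and 1481 CPM in mixed culture. Strain 12 had 9.84, 30.95 and 31.5 CPM in single and 186, 159 and 145 CPM in mixed culture. In both strains all mixed culture libraries lay above all single culture libraries. The rise was 12.0-fold in strain 11 (log2 3.58, SE 0.33, adjusted p = 4.3e-12) and 8.05-fold in strain 12 (log2 3.01, SE 0.45, adjusted p = 1.07e-05). A share of 5.80% to 7.80% strain 11 RNA in the strain 12 libraries would give the rise of strain 12, and the part of the sort was not tested. The strain 12 single culture value rests on 5, 4 and 5 reads. Without its replicate 1, the lowest library, the response of strain 12 was 2.38 (adjusted p = 0.00308). The responses of the strains differed by 0.57 (unadjusted p = 0.72, adjusted p = 0.964, edgeR). The standard error of this difference, 0.64, would give a smaller p, so no interval is given.

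By 20 h strain 11 had 2603, 2380 and 1710 CPM in single and 4243, 2834 and 2784 CPM in mixed culture. Strain 12 had 884, 895 and 501 CPM in single and 923, 1395 and 1250 CPM in mixed culture. At 30 h strain 11 had 1358, 1238 and 1253 CPM in single and 2316, 2216 and 2153 CPM in mixed culture, and strain 12 had 283, 463 and 222 CPM in single and 711, 363 and 433 CPM in mixed culture. Mixed culture lay above single culture without overlap in both strains at 20 h and in strain 11 at 30 h, which describes the libraries and is no test. In strain 11 the log2 differences were 0.56 and then 0.80, in strain 12 they were 0.66 and then 0.67, and none was called (adjusted p 0.139 to 0.661). The mean response over times was 1.64 in strain 11 (SE 0.18, adjusted p = 1.58e-10) and 1.45 in strain 12 (SE 0.22, adjusted p = 1e-05).

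**Figure D5:**
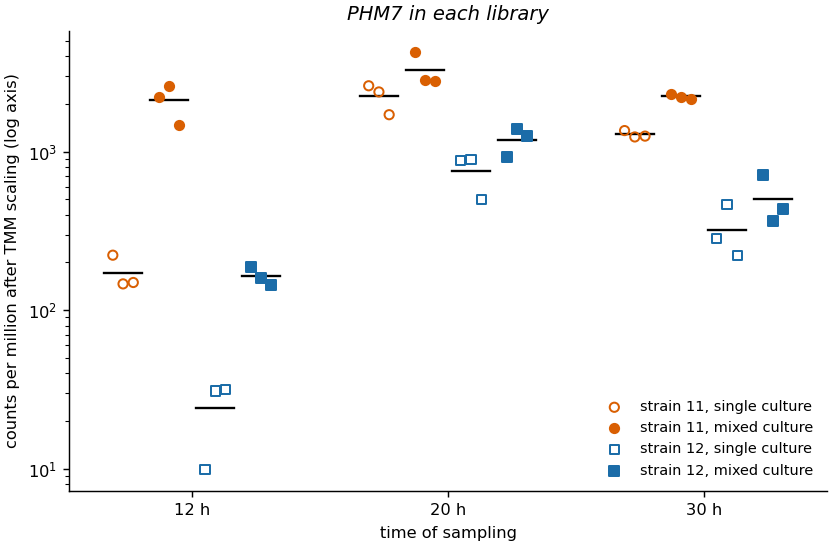
CPM of PHM7 in each library on a log axis, by sampling time, with circles for strain 11, squares for strain 12, open symbols for single and filled symbols for mixed culture, and bars at group means. At 12 h mixed culture lies above single culture in both strains, and at every time all strain 12 libraries lie below all strain 11 libraries of the same culture.

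PHM7 was lower in strain 12 than in strain 11 in each of the 6 pairs of groups, with no overlap in any. In single culture the log2 difference in order of time was -3.12, -1.57 and -2.01 (adjusted p 1.59e-06, 0.00587 and 0.000142). In mixed culture it was -3.69, -1.47 and -2.13 (adjusted p 1.43e-11, 0.0102 and 5.76e-05). As a share of the strain 11 mean, strain 12 had 14%, 34.1% and 25.2% in single culture and 7.76%, 36.2% and 22.5% in mixed culture at 12, 20 and 30 h. Averaged over the times the difference was -2.23 in single culture (SE 0.22) and -2.43 in mixed culture (SE 0.19). Without replicate 1 of strain 12 single culture the value at 12 h was -2.43 (adjusted p = 0.00208). At 20 h the call in single culture was lost without replicate 3 of strain 12 (log2 -1.35, adjusted p = 0.107). The call in mixed culture at 20 h was lost without replicate 1 of strain 11 (log2 -1.20, 0.268), without replicate 1 or 3 of strain 12 (0.156 and 0.0593), and in both limma fits (0.111 and 0.168).

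In time, PHM7 rose from 12 to 20 h in strain 11 single culture (log2 3.67, SE 0.34, adjusted p = 5.26e-13), in strain 12 single culture (log2 5.22, SE 0.44, adjusted p = 5.14e-14) and in strain 12 mixed culture (log2 2.87, SE 0.34, adjusted p = 3.87e-09). Without replicate 1 of strain 12 single culture at 12 h, the rise in that culture was 4.48 (adjusted p = 3.01e-10). In strain 11 mixed culture, which was already at 1481 to 2609 CPM at 12 h, the difference was 0.65 (95% interval 0.05 to 1.25, adjusted p = 0.238). From 20 to 30 h PHM7 fell by 0.95 on average over strains and cultures (SE 0.16, adjusted p = 4.62e-05). Within single groups this step ran from -0.56 to -1.23 and was not called. In strain 12 its unadjusted p was 0.000837 in single and 0.0003 in mixed culture (adjusted p 0.0931 and 0.22, edgeR). The sequencing depth fell over the same interval as the first step, from a median of 230090 reads at 12 h to 88929 at 20 h. The part of depth in the time comparisons was not tested.

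The difference between the responses at 12 h and at the later times was tested after these values had been seen. The response to mixed culture was larger at 12 than at 20 h by 3.02 in strain 11 (SE 0.44, adjusted p = 2.78e-06, 2.67% of genes called) and by 2.35 in strain 12 (SE 0.56, adjusted p = 0.0105, 2.45% of genes called). It was larger at 12 than at 30 h by 2.78 in strain 11 (SE 0.44, adjusted p = 1.34e-05, 2.45% of genes called) and by 2.34 in strain 12 (SE 0.58, adjusted p = 0.0257, 0.899% of genes called). PHM7 was the 1 member called in each of these 4 contrasts. In strain 12 both calls were lost without replicate 1 of single culture at 12 h (log2 1.68 and 1.69, adjusted p 0.15 and 0.228). The call against 30 h was also lost without replicate 1 of mixed culture at 12 h (0.0788), replicate 2 of single culture at 30 h (0.118) or replicate 2 of mixed culture at 30 h (0.0886), in both limma fits (0.0786 and 0.0687) and in a fit of only the libraries compared (0.111).

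Genes that mark strain 11 were read beside PHM7 in the strain 12 fraction of the mixed cultures. A set of 3 retrotransposon records (YLR227W-B, YNL284C-B and YNL284C-A), chosen on these libraries, had 14 to 96 reads in the 9 single culture libraries of strain 11 and 0 in the 9 of strain 12. In strain 12 mixed culture the counts were 0, 0 and 4 (12 h), 6, 2 and 3 (20 h), and 2, 0 and 2 (30 h). In strain 11 mixed culture they were lower than in its single culture, with a median of 66.4 against 222 CPM. At 12 h the 2 strain 12 mixed libraries with 0 marker reads had 186 and 159 CPM of PHM7 and the library with 4 had 145 CPM. Shares of strain 11 RNA of 7.80%, 6.48% and 5.80% would give the PHM7 rise of these 3 libraries. At this depth 3 marker reads correspond to 11.7% and 7.55% in the 2 libraries with 0, taking the marker level of strain 11 single culture, and to 34.9% and 22.5% taking that of mixed culture. In the third library the 4 reads correspond to 9.47% by the single culture level and 28.2% by the mixed culture level, both above the 5.80% that would give its PHM7 rise. The part of the sort in the PHM7 rise of strain 12 was not tested.

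In the other direction, 2 genes that were high in strain 12 single culture were also seen in the strain 11 fraction of mixed culture. SSU1, a sulfite pump, was at 0 to 24.8 CPM in strain 11 single culture, at 44.4 to 288 CPM in strain 11 mixed culture and at 569 to 1370 CPM in strain 12 single culture. YHB1, a flavohemoglobin, was at 0 to 106 CPM, 46.8 to 188 CPM and 542 to 1420 CPM in the same groups, so its strain 11 single and mixed culture libraries overlapped. PHM7 and PHO84 at 12 h lay higher in all strain 11 mixed libraries than in any strain 12 library, at 1481 CPM or more against 186 CPM or less for PHM7 and at 188 CPM or more against 132 CPM or less for PHO84. The part of the sort in the strain 11 values of mixed culture was not tested.

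The test of whether the strains responded differently to mixed culture called 0 of the 8 members at 12, 20 and 30 h (1.17%, 0.0817% and 0.0272% of genes called). An unadjusted p under 0.05 was found for 2, 2 and 0 members, and DESeq2 called 1, 0 and 0. The member nearest the threshold was PHO84 at 12 h, the member that DESeq2 called, with an adjusted p of 0.0527 here. Its adjusted p was 0.0472 with the replicate block, 0.0394 in DESeq2, 0.0474 among only the libraries compared and 0.00761 without a filter. Above the threshold were the values with RLE factors (0.0657) and of limma on log2(RPKM + 1) and log2(RPKM + 0.1) (0.826 and 0.999). Over the 12 fits that left out 1 library, the PHO84 value ran from 2.15 to 3.00 and its adjusted p from 0.0187 to 0.253. Of the 12, 1 called it, the fit without replicate 3 of strain 12 single culture.

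Of 28 other genes of the pathway, 20 passed the filter. In mixed against single culture, 2 of the 20 were called at a single time, both in strain 11 at 12 h, where 8.66% of all genes were called. PHM8, a phosphatase of lysophosphatidic acid and nucleotides that is induced by low phosphate, rose (log2 1.48, SE 0.49, adjusted p = 0.0473), and VTC5, a further subunit of the polyphosphate complex, fell (log2 -1.27, SE 0.42, adjusted p = 0.0436). On average over times in strain 11, where 14.7% of all genes were called, 2 of the 20 passed. PPN2, a vacuolar endopolyphosphatase, rose (log2 0.86, SE 0.31, adjusted p = 0.0474), and PHO3, an acid phosphatase repressed by thiamin, fell (log2 -0.94, SE 0.27, adjusted p = 0.0105). In strain 12 none of the 20 was called in mixed against single culture on average, where 3 had an unadjusted p under 0.05. Between the strains, averaged over times, the low-affinity phosphate transporter gene PHO90 was lower in strain 12 in single culture (log2 -0.97, SE 0.26, adjusted p = 0.0344), 1 of the 20 against 1.47% of all genes. PHO3 was higher in strain 12 in mixed culture (log2 1.27, SE 0.26, adjusted p = 0.000401), 1 of the 20 against 9.78% of all genes. PHO3 is a near copy of PHO5, so its reads are uncertain too.

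From 12 to 20 h, averaged over strains and cultures, 4 of the 20 rose and 3 fell, set against 48.1% of all genes called. Those that rose were PHM8 (log2 1.88), SYG1 (0.83), PHO90 (0.66) and VIP1, a kinase that makes inositol pyrophosphates (0.42). SYG1 overlaps another gene, so its reads are uncertain. Those that fell were PHO3 (-1.56), VTC5 (-1.41) and PHO88, listed as SND3 in R64 (-1.30). From 20 to 30 h none was called, with 2 at an unadjusted p under 0.05. The phosphate-responsive genes SPL2 and PHM6 had 12 and 23 reads over all 36 libraries, and the acid phosphatase genes PHO11 and PHO12 had 5 and 6.

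The profiles of single members over the 12 group means were compared with those of 737 tested genes with a mean count of at least 50, as a description of 12 points that share libraries and depth. The genes most like PHO84 were PMC1, which encodes the vacuolar calcium pump (Pearson r 0.937 on log2 CPM), GYP7 (0.931), ALD6 (0.913), PLB1 (0.911) and YPS1 (0.896). Those most like PHM7, a gene added to this search after its values were seen, were ALD3 (0.906), PMC1 (0.896), HSP12, a small heat shock protein of stationary cells (0.893), MNR2 (0.891) and MGA1 (0.886). For VTC3, which varied little, the likeness was weaker, with NUP1 (0.801), QCR6 (0.669), CLG1 (0.587), IXR1 (0.564) and YNL190W (0.563). PHO89 did not pass the filter and was not compared.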

How the data were processed

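RNA of sorted cells was measured in 36 libraries, 3 in each of 12 groups set by the labels of strain, culture and time. Per the file headers and the labels, the authors deposited counts of reads on each gene and exon and the RPKM of each gene, made on sacCer2. LifeScope is named in the exon files and Cufflinks 1.3.0 and Cuffdiff in the submitters' processing notes. For LifeScope, no version, strand setting or mapping quality limit is given in the sources used here. The deposited RPKM equalled that recomputed from the counts for 100% of genes. Deposited counts from all 36 libraries were tested with edgeR 4.0.16 (R 4.3.3, quasi-likelihood, filterByExpr, TMM, 1 coefficient per group, two-sided, Benjamini-Hochberg over 3670 genes). Total counts ran from 35400 to 530376, TMM factors from 0.895 to 1.07, and 0 rows lacked a gene name. Standard errors are the log2 difference over the root of the F statistic. This ratio is unreliable for very small differences and need not match the p-value. Alternatives were DESeq2 1.42.0, RLE factors, no filter, a replicate block, only the libraries compared, limma 3.58.1 on log2(RPKM + 1) or log2(RPKM + 0.1), a log2 limit of 1, and each library left out. The procedure was run on simulated counts drawn from means and spreads fitted to these same libraries. That run checks the code only, and no result rests on it. Detection limits take 3 reads and, like intervals on counts, cover counting error only.

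The members and the list of 28 other pathway genes were chosen with earlier results of these data known. The text describes all 10 members, with values per library for those called at least once, and names other pathway genes only from that list. The responses between times, the search with PHM7 and the promoter windows were chosen after values were seen. Strain marker genes were chosen on these libraries. With 3 libraries against 3, an exact permutation test cannot go below p = 0.1 and was not used. Statements that groups did not overlap are therefore descriptions only, and the share of all genes without overlap was not counted. Libraries of equal replicate number were taken as paired where all 3 correlations of their deviations from group means exceeded 0.1. Only strain 11 and strain 12 single cultures at 12 h met this cut (r 0.36, 0.221 and 0.259), and the pairing there comes from these correlations alone. Mixed cultures of the strains at 12 h had r of 0.139, 0.0649 and 0.142. Of the 6717 gene IDs, 6025 matched the R64 table. R64 served for names and promoters, and gene coordinates are those deposited. The authors' Cuffdiff test was not rerun.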

Additional observations from a re-analysis of the deposited data

Results flagged for a closer look

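The effect of mixed culture on PHM7 differed between sampling times within each strain, by a test of the difference itself in the model over all genes (edgeR, two-sided). In strain 11 the response at 12 h exceeded that at 20 h by 3.02 and that at 30 h by 2.78 on the log2 scale. In strain 12 it exceeded that at 20 h by 2.35 and that at 30 h by 2.34. These contrasts were added after the values had been seen, and both values of strain 12 were not called when the lowest library of its single culture at 12 h, with 5 reads of PHM7, was left out. The part of the sort in the strain 12 response was not tested.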

How the results depend on the processing

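The members gave 38 calls over the 33 contrasts. Under the 7 other tests and scalings, 239 of 261 repeats of these calls stayed past the threshold and 22 did not. A further 2 had no adjusted p in DESeq2 and 3 (PHO2 in strain 12 mixed minus single at 20 h and single 20 minus 12 h, and PHO84 in strain 11 single 20 minus 12 h) did not pass the filter among only the libraries compared. The log2 limit of 1, counted apart, kept 34 of the 38, and with 1 library left out 394 of 438 stayed and 44 did not. The direction was reversed in 0 repeats. The cause of a lost call was not tested, except that fits of the libraries compared use fewer samples. Of the members called, DESeq2 gave 1 (against 0) for the difference of the strains' responses at 12 h, 2 (against 1) for the strain 11 response at 12 minus 20 h, 1 (against 0) for 30 minus 20 h in strain 12 single and in strain 12 mixed culture, 0 (against 1) for mixed minus single in strain 12 at 20 h and 1 (against 2) for its mean of times. In these last 2 contrasts PHO2 was the member without an adjusted p. Only the libraries compared gave 1 (against 0) for the difference of responses at 12 h and for strain 11 mixed 20 minus 12 h, 2 (against 1) for the strain 11 response at 12 minus 20 h, 1 (against 3) for strain 11 single 20 minus 12 h, 3 (against 1, with PHO84 and VTC4 added) for strain 12 mixed 20 minus 12 h, 1 (against 2) for strain 12 minus 11 single at 12 h and for strain 12 mixed minus single at 12 h, and 0 (against 1) for strain 12 mixed minus single at 20 h and its response at 12 minus 30 h. No filter gave 1 (against 0) for the difference of responses at 12 h and 2 (against 1) for strain 12 mixed 20 minus 12 h and its response at 12 minus 20 h. Limma, with either pseudocount, gave 1 (against 2) for strain 11 mixed minus single at 12 h, strain 12 minus 11 mixed at 12 h and over times, single at 12 h, and strain 12 mixed minus single over times. It gave 0 (against 1) for strain 12 minus 11 mixed at 20 h and the strain 12 response at 12 minus 30 h, 1 (against 0) for strain 12 single 30 minus 20 h, and with 0.1 only, 2 (against 1) for the strain 11 response at 12 minus 20 h. The log2 limit of 1 gave 2 (against 4) for 20 minus 12 h and 0 (against 1) for 30 minus 20 h over strains and cultures, and 1 (against 2) for strain 12 minus 11 single over times. RLE factors moved none of these counts.

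The replicate block gave 1 member (against 0), PHO84, for the difference of responses at 12 h (adjusted p = 0.0472, against 0.0527 without it) and changed no other member's call. For the strains in single culture at 12 h, the pairing that the correlations gave, it left 2 members called.

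With 1 library left out, the members called ranged from 0 to 1 in strain 11 mixed minus single at 20 h (2 to 2 at 12 h, 2 to 3 over times), from 1 to 2 in strain 12 at 12 h and over times and 0 to 1 at 20 h, from 1 to 2 for the strains in single and in mixed culture at 12 h and 0 to 1 at 20 h, from 1 to 4 for strain 11 single, 2 to 3 for strain 12 single and 1 to 2 for strain 12 mixed 20 minus 12 h, from 3 to 4 and 1 to 2 for the mean steps to 20 and to 30 h, from 0 to 1 for the difference of responses at 12 h, from 1 to 2 for the strain 11 response at 12 minus 20 h, and from 0 to 2 and 0 to 1 for the strain 12 responses at 12 minus 20 and minus 30 h. Counts over all genes moved more than those of the members. In strain 11 mixed minus single they ran over the other alternatives from 119 to 569 (318), 181 to 235 (183) and 78 to 176 (140) at 12, 20 and 30 h, in strain 12 from 21 to 129 (95), 47 to 123 (47) and 0 to 22 (8), for the strains in single culture from 19 to 49 (38), 10 to 58 (21) and 11 to 32 (19) and in mixed culture from 87 to 342 (185), 0 to 97 (7) and 5 to 89 (33). The depth limits PHO89 and PHO5, which could not be tested and had under 10 reads in every library. Every library was also under 10 reads in 5 groups for PHO2, in 2 groups each for PHO84, PHO4 and VTC3, and in 1 group for PHM7.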
